A study of Bos taurus with 13 samples.

Results

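The miR-99/100 and miR-125 families were represented by 5 mature miRNAs in extracellular vesicles (EVs) of bovine follicular fluid. These were bta-miR-100, bta-miR-99a-5p and bta-miR-99b of the miR-99/100 family, and bta-miR-125a and bta-miR-125b of the miR-125 family. They were chosen by name, because their genes lie beside let-7 genes, and not by a measured value, although earlier results of these data were known. The 5 members were among 311 miRNAs listed for at least 1 group of animals, and each of them was listed and above 3 reads in every library. All 5 passed the filter on low read counts in every comparison.

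Small RNA of EVs from large follicles of Holstein Friesian cows and heifers was sequenced in 13 libraries, each made from pooled follicular fluid. Transient cows (TCs) had a negative energy balance at weeks 5 to 6 after calving (3 pools from 11 cows) and a positive one at weeks 9 to 10 (3 pools from 7 cows). Always negative cows (ANCs) and always positive cows (APCs) kept a negative or a positive balance throughout, and each of these groups gave 2 pools from 2 cows at weeks 5 to 6. Heifers, which were not lactating and had a positive energy balance, gave 3 pools from 8 animals. The sources used here do not give which animals went into which pool, or whether the TCs of the later weeks were also those of the earlier ones, so the p-values measure the spread between pools.

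miRNAs are short RNAs that guide a silencing complex to messenger RNAs, mostly by pairing through the seed near their 5′ end. miR-99a, miR-99b and miR-100 share 1 seed and are known to repress MTOR and the IGF1 receptor in many cell types. miR-125a and miR-125b share another seed, which is also that of lin-4, the first miRNA found in worms, and the let-7 family has a seed of its own. In mammals the 3 families are often transcribed together from clusters, and let-7 and miR-125 are both known for roles in developmental timing and differentiation. EVs in follicular fluid carry miRNAs among granulosa cells, cumulus cells and the oocyte.

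In the RefSeq bovine annotation the members' genes form 3 clusters of 3 miRNA genes each, with no other miRNA gene inside any of them. MIR125B-1, MIRLET7A-2 and MIR100 are neighbours in the first, MIR125B-2, MIRLET7C and MIR99A in the second, and MIR99B, MIRLET7E and MIR125A in the third. bta-miR-125b is thus the product of 2 genes in different clusters, which its read count cannot separate. The mapping allowed 1 mismatch, so some reads of the nearly identical mature forms within a family may have been assigned to another member.

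Libraries held between 145030 and 421435 reads assigned to miRNAs, with a median of 327359, and 3 reads were worth 7.9 to 19.0 CPM, reads scaled to the size of the library. Levels are given as CPM scaled over all 13 libraries by the trimmed mean of M values (TMM), a scaling that takes most miRNAs as unchanged. The sources used here do not state whether reads copied by PCR from the same molecule were merged. Such copies are not independent molecules, so confidence intervals cover counting error only. RNA of replicate 1 of every group was measured 1 day before that of replicates 2 and 3, except that APC replicate 2 had no date. In these bulk samples, fewer vesicles from a cell type and fewer copies per vesicle cannot be told apart.

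The 5 members together took 1.20% to 2.68% of the reads of a library, with a median of 1.62%. The highest share was that of ANC replicate 1 (95% Wilson interval 2.61% to 2.75%) and the lowest that of APC replicate 1 (1.16% to 1.23%). The other ANC library, at 1.97%, was above each heifer library (1.28%, 1.35% and 1.66%). So were the TC libraries at weeks 9 to 10, at 1.70%, 1.82% and 1.93%. bta-miR-125a was the most abundant member by mean level and bta-miR-100 the least abundant in every library. When the miRNAs of a library were ranked by reads, bta-miR-125a stood at rank 18 to 46, bta-miR-125b at 29 to 63, bta-miR-99a-5p at 39 to 74, bta-miR-99b at 66 to 99 and bta-miR-100 at 98 to 134. These CPM are not divided by length, and differences in how well each sequence is ligated and amplified were not measured. Only 1 passenger strand of these precursors was listed, bta-miR-99a-3p, with 1 to 19 reads in a library, which is too few to compare groups.

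The spread of 3 members was small. The SD of the log2 level over the 13 libraries was 0.33 for bta-miR-99a-5p, 0.37 for bta-miR-99b and 0.37 for bta-miR-125b, against a median SD of 0.61 over the 247 miRNAs that passed the filter in all libraries. bta-miR-99a-5p stood at percentile 6.5 of these SDs, bta-miR-99b at 10.9 and bta-miR-125b at 11.3. The SD was 0.51 for bta-miR-125a and 0.55 for bta-miR-100, nearer to that median. Within groups the SD was of the same size, 0.33 to 0.55, so that most of the members' variation lay between pools of the same group.

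bta-miR-100, the smallest member in reads, had 514.0, 600.2 and 518.5 CPM in the TCs at weeks 5 to 6. The TCs at weeks 9 to 10 had 834.1, 326.3 and 375.4 CPM. In ANCs the level was 301.1 and 281.2 CPM, in APCs 638.1 and 384.1 CPM, and in heifers 306.4, 679.1 and 253.4 CPM. As TMM-scaled CPM, the ANC libraries lay below all cow libraries of the other groups, but inside the range of the heifers. As a share of all miRNA reads, bta-miR-100 held 0.0342% in ANC replicate 1 and 0.029% in ANC replicate 2. It held 0.0273% in APC replicate 2, below both, and 0.032% in TC replicate 2 at weeks 9 to 10, below ANC replicate 1. The Wilson intervals of these shares overlapped. In every remaining cow library the share was above both ANC libraries. The mean level fell in the order TCs at weeks 5 to 6 (544.2 ± 48.5 CPM, SD, n = 3), TCs at weeks 9 to 10 (512.0 ± 280.1, n = 3), APCs (511.1 ± 179.7, n = 2), heifers (412.9 ± 232.0, n = 3) and ANCs (291.1 ± 14.1, n = 2), and each neighbouring pair in this order overlapped. The reads behind these levels ranged from 42 in ANC replicate 2 to 343 in TC replicate 1 at weeks 9 to 10.

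bta-miR-99a-5p, of the same seed family, was 2.3-fold apart between its highest and lowest library, and bta-miR-99b 2.19-fold. Its levels were 2611, 3266 and 2266 CPM in the TCs at weeks 5 to 6 and 4309, 2446 and 4019 CPM in the TCs at weeks 9 to 10. In ANCs it was at 3169 and 3194 CPM, in APCs at 2680 and 3106 CPM, and in heifers at 1873, 3295 and 3296 CPM. The ANC levels lay inside the range of every group except the APCs, which they exceeded.

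bta-miR-99b, the remaining form of this seed, had 1189, 1286 and 1614 CPM in the TCs at weeks 5 to 6 and 1048, 1101 and 1504 CPM at weeks 9 to 10. ANCs had 1866 and 1848 CPM, APCs 1328 and 1426 CPM, and heifers 924.1, 853.8 and 1704 CPM. Both ANC libraries were above every other library, and heifer replicate 3 was the closest to them. The ANC mean, 1857 ± 12.8 CPM (SD, n = 2), was followed by 1377 ± 69.5 in APCs (n = 2), 1363 ± 223 in TCs at weeks 5 to 6 (n = 3), 1218 ± 250 in TCs at weeks 9 to 10 (n = 3) and 1161 ± 472 in heifers (n = 3), and the last 4 groups overlapped one another.

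bta-miR-125a, whose gene lies in the cluster of MIR99B, had 7145, 5578 and 8227 CPM in the TCs at weeks 5 to 6. At weeks 9 to 10 the TCs had 3670, 9241 and 5773 CPM. ANCs had 11350 and 8577 CPM, APCs 4721 and 10380 CPM, and heifers 5268, 4057 and 6420 CPM. Heifers had the lowest mean (5249 ± 1182 CPM, SD, n = 3) and ANCs the highest (9963 ± 1961 CPM, n = 2), without overlap. Of the APC libraries, 1 lay inside the range of the heifers and the other inside that of the ANCs.

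bta-miR-125b had 4664, 5598 and 2616 CPM in the TCs at weeks 5 to 6 and 4971, 5469 and 4313 CPM at weeks 9 to 10. The levels were 6882 and 5249 CPM in ANCs, 4069 and 5237 CPM in APCs, and 3237, 3897 and 3865 CPM in heifers. All 3 heifer libraries were below every cow library but 1, TC replicate 3 at weeks 5 to 6, which was the lowest of the 13.

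**Figure D1:**
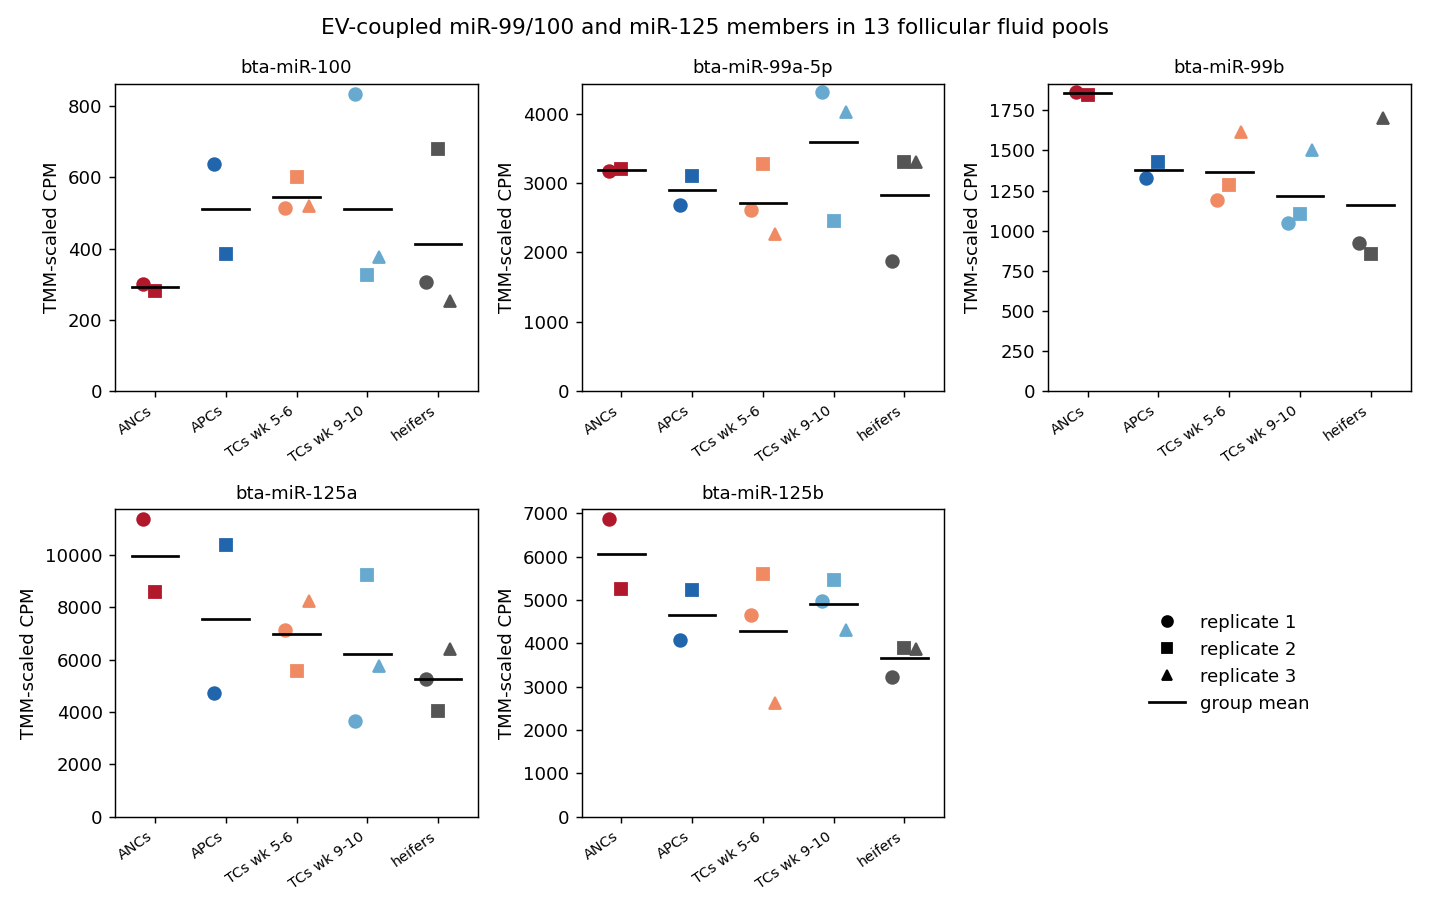
TMM-scaled CPM of the 5 members (vertical axes, linear from 0) in each of the 13 follicular fluid pools, by group. Points are libraries with a marker for each replicate number and bars are group means; the ANC points of bta-miR-99b lie above all others, and those of bta-miR-100 lie at 281.2 and 301.1 CPM.

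The comparison of ANCs with heifers asked how EV miRNAs of lactating cows that stay in energy deficit differ from those of non-lactating animals. bta-miR-125a was the only member called DE, and it was upregulated in ANCs. On the scale of this comparison it was at 11076 ± 1299 CPM in ANCs (SD, n = 2) and 5541 ± 1394 CPM in heifers (n = 3), a fold change of 2.03. The log2 fold change was 1.02 with a standard error of 0.35 (limma, Benjamini-Hochberg adjusted p = 0.138). The paper had already listed bta-miR-125a as higher in ANCs than in heifers, from the same libraries. The call thus adds no independent evidence. The thresholds for DE were those of the study, a log2 fold change of 1 or more in either direction, p under 0.05 and an adjusted p up to 0.25. With 1 of 5 members called and 18.6% of all 215 miRNAs called, the share among the members was near that of all miRNAs. The log2 fold change was close to the threshold of 1, and the call was lost in 9 of 16 alternative analyses, in which the log2 fold change ranged from 0.77 to 1.21 and the adjusted p from 0.0591 to 0.49 (limma, edgeR or DESeq2).

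Within each day of RNA measurement the direction was the same. On the first day ANC replicate 1 had 11350 CPM of bta-miR-125a and heifer replicate 1 had 5268 CPM, and on the second day ANC replicate 2 had 8577 CPM against 4057 and 6420 CPM in the heifers. With the day as a term in limma the log2 fold change was 1.01 (limma, adjusted p = 0.206).

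bta-miR-125b was at 6744 ± 746 CPM in ANCs and 3866 ± 509 CPM in heifers, with a log2 fold change of 0.81 ± 0.33 (SE, limma, adjusted p = 0.209). bta-miR-99b was at 2080 ± 153 against 1232 ± 547 CPM, with a log2 fold change of 0.84 ± 0.42 (SE, limma, adjusted p = 0.245). Neither reached the fold threshold, although the ANC and heifer libraries of both did not overlap. Non-overlap was seen for 3 of 5 members and for 47.4% of all miRNAs tested in this comparison. At an unadjusted p under 0.05 there were 2 of 5 members against 21.9% of all miRNAs. bta-miR-99a-5p had a log2 fold change of 0.31 and bta-miR-100 of -0.27, both with overlapping libraries, and the median over the 5 members was 0.81 against 0 over all miRNAs tested.

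Without heifer replicate 3, the heifer library with the highest bta-miR-99b, both bta-miR-125a and bta-miR-99b were called (log2 fold change of bta-miR-99b 1.18, limma adjusted p = 0.0676, within a range of 0.0676 to 0.58 over the alternatives). No member was called without ANC replicate 1, without heifer replicate 1 or without heifer replicate 2.

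Markers of other cells also differed between these groups. The 6 leukocyte miRNAs summed to 745 to 1580 CPM in ANCs and 4868 to 6077 CPM in heifers, and 5 of the 5 that could be tested were called lower in ANCs. For 9 epithelial miRNAs the sums were 5542 to 8858 and 17326 to 27145 CPM, with 6 called lower, and for 2 erythrocyte miRNAs they were 131 to 1145 and 1717 to 3959 CPM. Over all 215 miRNAs tested, 26 were called lower in ANCs. The paper had already reported the called leukocyte and epithelial miRNAs as lower in ANCs from the same libraries. The marker lists were chosen with earlier results of these data known, so these counts add no independent evidence. bta-miR-122, the main miRNA of liver, was at 329 to 2926 CPM in ANCs and 5369 to 17623 CPM in heifers, while bta-miR-202, a miRNA of the gonads, was at 7016 to 8014 and 3410 to 6364 CPM. The 3 muscle miRNAs summed to 305 to 482 and 567 to 976 CPM, and the 3 stromal and endothelial miRNAs to 23124 to 30972 and 18948 to 41213 CPM. No listed marker was at 0 in every library of a group. The part of these differences in the levels of the members was not tested.

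APCs differed less from heifers, with all 5 members at a higher mean and none called, against 12.4% of all 233 miRNAs called. The log2 fold change was 0.59 ± 0.44 (SE) for bta-miR-125a (limma, adjusted p = 0.521) and 0.55 ± 0.52 for bta-miR-100 (limma, adjusted p = 0.614). For the other 3 members it was between 0.23 and 0.49. Only bta-miR-125b did not overlap, 1 of 5 members against 36.1% of all miRNAs. The bta-miR-125a value depended on both the library and the scaling: it was 1.12 and called without APC replicate 1 (limma, adjusted p = 0.223, the lowest of a range up to 0.995 over the alternatives) and 0.07 without APC replicate 2. It was 0.24 with the deposited scaling, 0.09 with the day as a term and 0.01 with libraries scaled by total reads, a scaling under which the median of all miRNAs was -0.54 and bta-miR-100 was at -0.03.

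In TCs at weeks 5 to 6, when their energy balance was negative, no member was called against heifers, while 6.96% of 230 miRNAs were. The largest log2 fold change was that of bta-miR-100, 0.52 ± 0.41 (SE, limma, adjusted p = 0.512), and the smallest that of bta-miR-99a-5p, -0.03. Libraries overlapped for all 5 members, against 22.2% of miRNAs without overlap. Heifer replicate 2, at 679.1 CPM, decided the size of the bta-miR-100 value, which was 0.96 without it (limma, adjusted p = 0.504, within a range of 0.298 to 0.781 over the alternatives) and 0.24 without heifer replicate 3. No label pairs the TC pools with the heifer pools. The replicate numbers were taken as pairs because deviations from the group means correlated in these same data (0.188, 0.372 and 0.371). The number also goes with the day of RNA measurement, so the blocked values are descriptive. Blocking on it raised the calls over all miRNAs from 16 to 29 and still called no member. By pair, bta-miR-125a was higher in the TCs in 3 of 3 pairs, with log2 differences of 0.44, 0.46 and 0.36, and the other members were higher in 1 or 2 pairs. In the blocked fit its log2 fold change was 0.41 ± 0.15 (SE, limma, adjusted p = 0.133), under the fold threshold. It was the only member with an unadjusted p under 0.05 in that fit, 1 of 5 against 30.4% of 230 miRNAs, and 26.2% of 229 miRNAs were higher in all 3 pairs.

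In TCs at weeks 9 to 10 all 5 members had a higher mean than in heifers, with log2 fold changes of 0.17 to 0.47. No member and 0 of all 227 miRNAs were called by limma or edgeR, while DESeq2 called 14. By limma 24 miRNAs, or 10.6%, had an unadjusted p under 0.05, none of them a member. bta-miR-125b had the largest difference (log2 fold change 0.47, limma, adjusted p = 0.59), and its libraries did not overlap, 1 of 5 members against 15.4% of miRNAs. The 4 comparisons with heifers share the same 3 heifer libraries, so these directions are not independent.

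For all cows against heifers, the means of the cow groups were averaged with equal weight, over 10 cow libraries. The members had log2 fold changes over heifers of 0.16 to 0.49, and all 5 were positive. The lowest p was that of bta-miR-125b (log2 fold change 0.41, limma, adjusted p = 0.37). No member was called, against 8.1% of 247 miRNAs, and all 5 overlapped, against 4.45% without overlap.

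**Figure D2:**
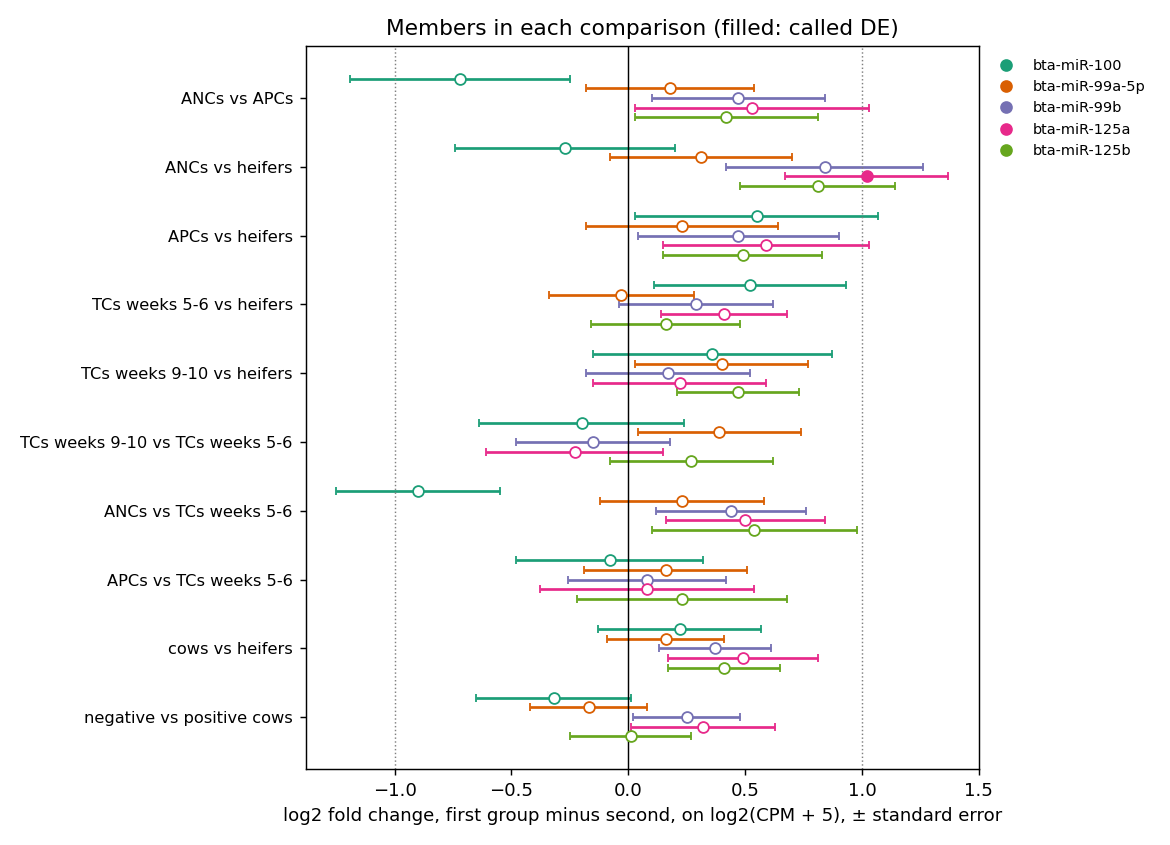
Log2 fold changes of the 5 members (horizontal axis, first group minus second, on log2(CPM + 5)) in the 10 comparisons, with bars of 1 standard error. The filled point is the call of bta-miR-125a in ANCs against heifers (1.02), and bta-miR-100 lies left of 0 in the 3 comparisons of ANCs with other groups. It also lies left of 0 in TCs at weeks 9 to 10 against weeks 5 to 6 (-0.20) and APCs against TCs at weeks 5 to 6 (-0.08). The same holds for cows in negative against positive balance (-0.32).

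Among cows, the levels of ANCs and of TCs at weeks 5 to 6 were compared to set lasting against transient energy deficit at the same weeks. bta-miR-100 was at 285.2 ± 8.19 CPM in ANCs (SD, n = 2) and 540.6 ± 66.5 CPM in TCs (n = 3), without overlap. Its log2 fold change was -0.90 ± 0.35 (SE, limma, adjusted p = 0.55) and it was not called. The unadjusted p was under 0.05 for 1 of 5 members and for 8% of 225 miRNAs. When 1 library at a time was left out the value stayed between -0.97 and -0.72, with an adjusted p of 0.389 to 0.957 (limma) and an unadjusted p above 0.05 each time. The other 4 members had higher means in ANCs, with log2 fold changes of 0.50 ± 0.34 for bta-miR-125a (SE, limma, adjusted p = 0.582), 0.54 ± 0.44 for bta-miR-125b (limma, adjusted p = 0.717), 0.44 for bta-miR-99b and 0.23 for bta-miR-99a-5p. The members bta-miR-100, bta-miR-99b and bta-miR-125a, did not overlap, 3 of 5 against 27.1% of all miRNAs. No miRNA at all was called in this comparison by limma, edgeR or DESeq2, and 18 had an unadjusted p under 0.05 by limma.

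Cell type markers were set beside these values too. In ANCs and in TCs at weeks 5 to 6, respectively, the leukocyte miRNAs summed to 745 to 1580 and 2762 to 3063 CPM, the erythrocyte miRNAs to 131 to 1145 and 751 to 5583 CPM, and the epithelial miRNAs to 5542 to 8858 and 6462 to 33419 CPM. bta-miR-122 was at 329 to 2926 and 4212 to 5712 CPM and bta-miR-202 at 7016 to 8014 and 3254 to 4426 CPM. The muscle miRNAs summed to 305 to 482 and 295 to 395 CPM and the stromal and endothelial miRNAs to 23124 to 30972 and 30473 to 43136 CPM. The erythrocyte, epithelial, muscle, and stromal and endothelial sums overlapped between these groups. None of these markers was called, and their part in the members' values was not tested.

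Against APCs, the cows of the same weeks with a positive balance, ANCs showed a like order of the members. bta-miR-100 had a log2 fold change of -0.72 ± 0.47 (SE, limma, adjusted p = 0.588) and bta-miR-125a of 0.53 ± 0.50 (limma, adjusted p = 0.714), and the other 3 members were between 0.18 and 0.47. Of the members 4 of 5 did not overlap, with bta-miR-125a the exception, against 43.5% of 207 miRNAs. As a share of all miRNA reads, bta-miR-100 did overlap, at 0.0342% and 0.029% in ANCs and 0.0568% and 0.0273% in APCs. Limma and edgeR called 0 miRNAs and DESeq2 called 6, none of them a member. An unadjusted p under 0.05 by limma was seen for 0 of 5 members and for 17 miRNAs, or 8.21%. ANCs are the shared arm of the comparisons with TCs and with APCs. In APCs the leukocyte miRNAs summed to 2144 to 3971 CPM, the erythrocyte miRNAs to 2138 to 8934 CPM and the epithelial miRNAs to 6296 to 31321 CPM, with 0 of the 16 tested at a positive log2 fold change in ANCs. bta-miR-122 was at 631 to 5858 CPM, bta-miR-202 at 2983 to 5277 CPM, and the muscle and the stromal and endothelial miRNAs summed to 304 to 446 and 40606 to 45127 CPM. None was called, and their part in the members' values was not tested here either.

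The change within the TC group from weeks 5 to 6 to weeks 9 to 10, when energy balance turned positive, left the members within their spread. Log2 fold changes ran from -0.23 for bta-miR-125a to 0.39 for bta-miR-99a-5p, with a lowest p of 0.293 (limma, adjusted p = 0.705). All 5 members overlapped, against 13.4% of 224 miRNAs without overlap. No miRNA was called by limma, with 12 (5.36%, no member) at an unadjusted p under 0.05, or by edgeR, while DESeq2 called 8, none of them a member. APCs and TCs at weeks 5 to 6, which differed in balance at the same weeks, had log2 fold changes of -0.08 to 0.23, all overlapping, against 15.1% of 225 miRNAs without overlap; limma called 0, with 6 (2.67%, no member) at an unadjusted p under 0.05, edgeR 0 and DESeq2 1.

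The 5 cow libraries in negative balance were set against the 5 in positive balance, with the group means on each side averaged with equal weight. Here bta-miR-100 had a log2 fold change of -0.32 and bta-miR-125a of 0.32. The other members lay between them, with a lowest p of 0.313 (limma, adjusted p = 0.953). All 5 members overlapped, and 0 of 241 miRNAs were without overlap. Limma called 0 miRNAs, with 4 (1.66%, no member) at an unadjusted p under 0.05, edgeR 0 and DESeq2 1.

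Ratios of reads between members of 1 library do not depend on how libraries are scaled. Among the reads of the miR-99/100 family, bta-miR-100 held 4.82% (heifer replicate 3, 95% Wilson interval 3.96% to 5.87%) to 14.1% (heifer replicate 2, 12.6% to 15.7%), so the extremes of the study came from 1 group. Its share was 11.9%, 11.7% and 11.8% in the TCs at weeks 5 to 6, 5.64% and 5.28% in ANCs, 13.7% and 7.81% in APCs, and 13.5%, 8.43% and 6.36% in the TCs at weeks 9 to 10. The ANC libraries and the early TC libraries each held together closely, whereas the other groups spread widely. bta-miR-99a-5p was the main form of the family in every library, with 51.5% to 69.6% of its reads, and bta-miR-99b held 16.9% to 36.7%.

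The ratio of bta-miR-99b to bta-miR-100 was 6.20 and 6.57 in ANCs and 2.31, 2.14 and 3.11 in the TCs at weeks 5 to 6. In APCs it was 2.08 and 3.71, in the TCs at weeks 9 to 10 it was 1.26, 3.37 and 4.01, and in heifers 3.02, 1.26 and 6.72. ANCs were thus above all other cow libraries, and 1 heifer library was above them. For bta-miR-99a-5p to bta-miR-100 the ANC ratios were 10.5 and 11.4, and the highest among the other cows was 10.7. Heifer replicate 3 was above both ANC libraries in this ratio too, and the remaining heifer libraries were below them.

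Of the miR-125 reads, bta-miR-125a held 42.5% (TC replicate 1 at weeks 9 to 10, 95% Wilson interval 40.9% to 44.1%) to 75.9% (TC replicate 3 at weeks 5 to 6, 74.3% to 77.3%), with a median of 61.9%. The ratio of bta-miR-125a to bta-miR-125b was 1.65 and 1.63 in ANCs and 1.63, 1.04 and 1.66 in heifers. It was 1.53, 0.996 and 3.14 in the TCs at weeks 5 to 6, 0.738, 1.69 and 1.34 at weeks 9 to 10, and 1.16 and 1.98 in APCs. The ANC ratios thus lay inside the range of the heifers, while the levels of both forms were higher in ANCs than in any heifer library.

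The 4 ratios within the families were tested between all cows and heifers and between cows in negative and positive balance, 8 tests in all. The lowest p was that of bta-miR-99b to bta-miR-99a-5p in cows in negative against positive balance, with geometric means of 0.534 and 0.393 and a log2 difference of 0.44 (n = 5 and 5, exact two-sided permutation test, p = 0.0794, adjusted p = 0.635). By library this ratio was 0.455, 0.394 and 0.712 in the TCs at weeks 5 to 6 and 0.589 and 0.579 in ANCs, against 0.243, 0.450 and 0.374 in the TCs at weeks 9 to 10 and 0.496 and 0.459 in APCs. The log2 difference was 0.55 without TC replicate 2 at weeks 5 to 6 (exact permutation p = 0.0476) and 0.27 without TC replicate 1 at weeks 9 to 10 (exact permutation p = 0.159). The other 7 tests had exact permutation p from 0.365 to 0.976, each with an adjusted p of 0.976. Between cows and heifers the log2 differences of the 4 ratios were -0.10 to 0.18.

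**Figure D3:**
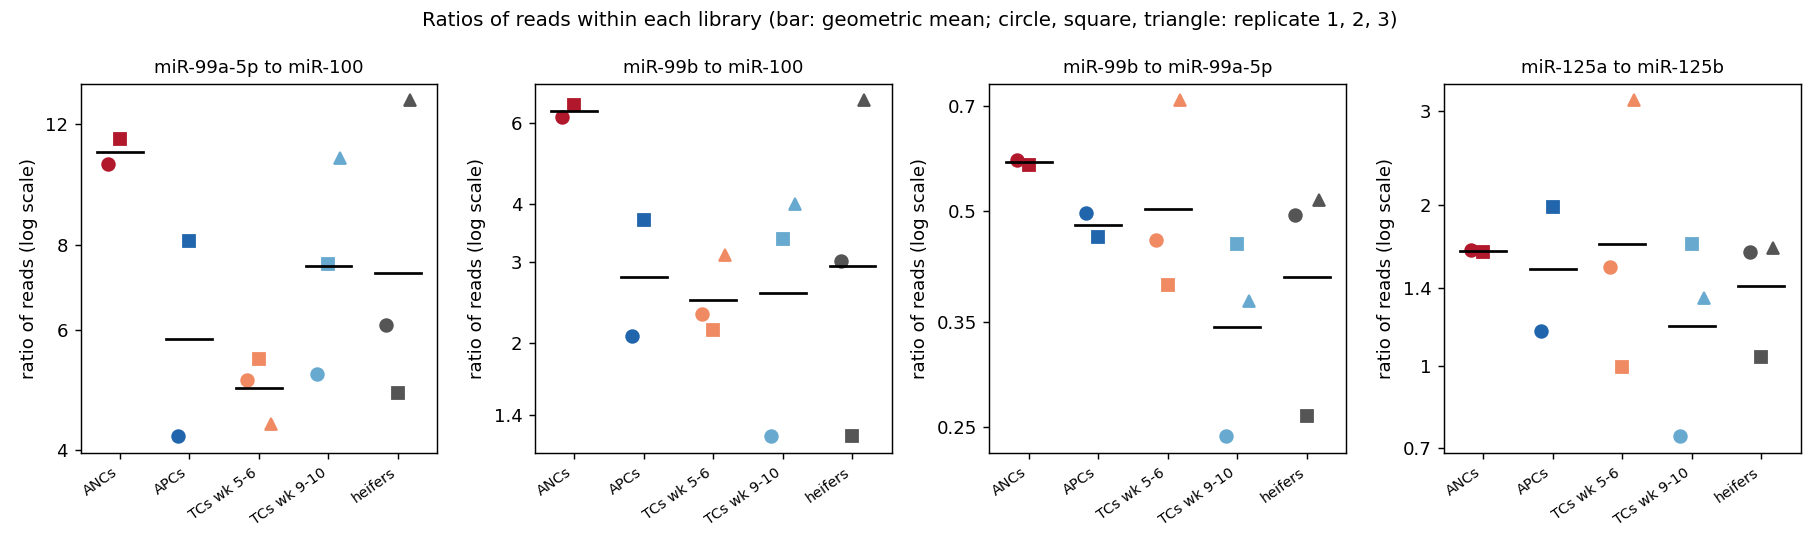
Ratios of reads between 2 members of a family within each library (vertical axes, log scale), by group; points are libraries and bars geometric means. The 2 ANC points lie close together in all 4 panels, and TC replicate 3 at weeks 5 to 6 has the highest ratio of bta-miR-125a to bta-miR-125b, 3.14.

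Across the 13 libraries bta-miR-100 and bta-miR-125a tended to move in opposite directions, with the lowest r of the pairs of members. On the log2 scale Pearson's r was -0.66 and Spearman's rho -0.63. Among the 246 other miRNAs bta-miR-100 ranked 225th in likeness to bta-miR-125a, so some had a lower r still. For deviations from the group means r was -0.82, although in ANCs both members were higher in replicate 1 than in replicate 2. Over all libraries r was -0.40 without the 2 libraries farthest from the median of bta-miR-100, TC replicate 1 at weeks 9 to 10 and heifer replicate 2. The ratio of bta-miR-125a to bta-miR-100 accordingly ran from 4.40 and 5.97 in those 2 libraries to 37.7 and 30.5 in ANCs. These points share library preparation, depth and scaling, and the correlations are descriptions without a test.

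bta-miR-99b and bta-miR-125a, products of 1 cluster, had r = 0.64 and rho = 0.64 over the 13 libraries (0.51 without 2 libraries, 0.38 for deviations from group means). Among the 246 other miRNAs bta-miR-125a ranked only 19th in likeness to bta-miR-99b. bta-miR-99a-5p and bta-miR-125b, where 1 of the 2 genes of bta-miR-125b lies in the cluster of MIR99A, had r = 0.47 but rho = 0.19, and r = -0.09 without 2 libraries. bta-miR-100 and bta-miR-125b, the pair of the other cluster, had r = -0.13. Between forms with the same seed r was 0.25 for bta-miR-100 and bta-miR-99a-5p, -0.51 for bta-miR-100 and bta-miR-99b, 0.20 for bta-miR-99a-5p and bta-miR-99b, and 0.35 for bta-miR-125a and bta-miR-125b.

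**Figure D4:**
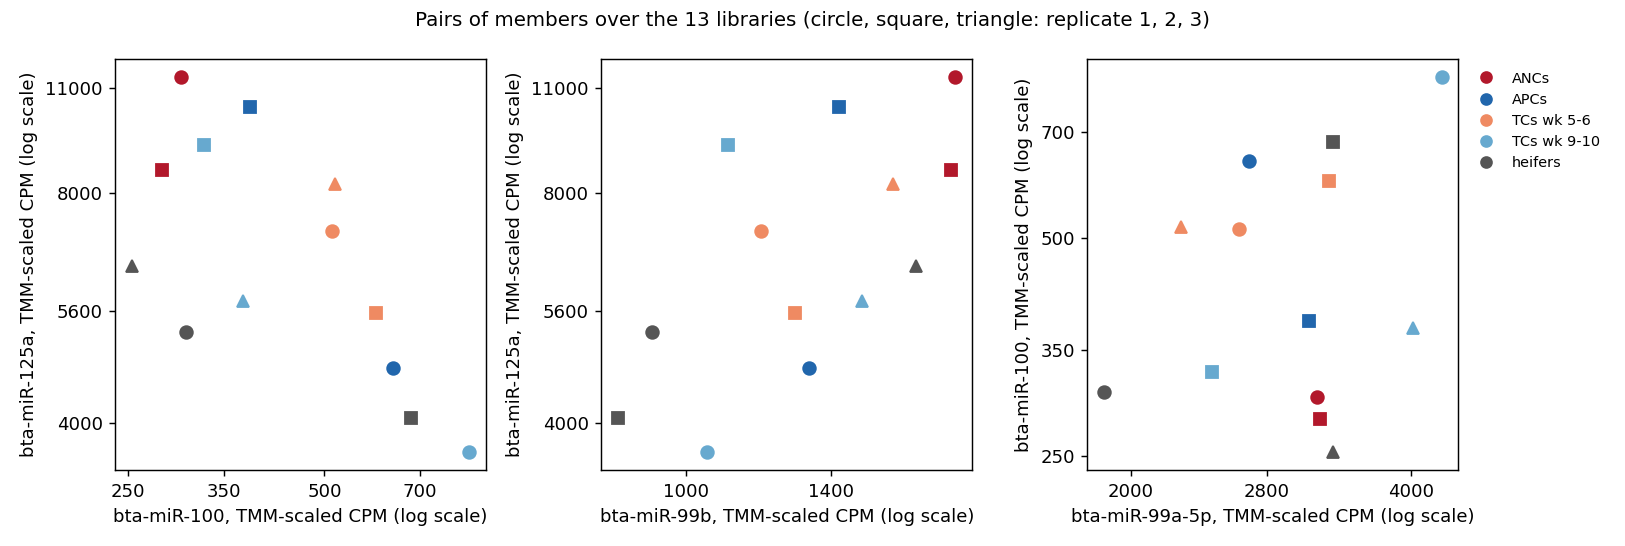
TMM-scaled CPM of 3 pairs of members over the 13 libraries (both axes on log scales), with colours for groups and markers for replicate numbers. bta-miR-125a falls as bta-miR-100 rises (r = -0.66), rises with bta-miR-99b (r = 0.64), and bta-miR-100 shows no clear trend with bta-miR-99a-5p (r = 0.25).

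The miRNAs most like each member over the 13 libraries came from other families. They were bta-miR-92a (r = 0.89), bta-miR-1306 (0.82) and bta-miR-29c (0.82) for bta-miR-125a, and bta-miR-32 (0.84), bta-miR-29a (0.79) and bta-miR-361 (0.74) for bta-miR-99b. Likeness was lower for the other members: bta-miR-2284t-5p (0.69), bta-miR-106b (0.67) and bta-miR-339b (0.66) for bta-miR-99a-5p, bta-miR-19a (0.68), bta-miR-31 (0.60) and bta-miR-218 (0.59) for bta-miR-125b, and bta-miR-503-3p (0.67), bta-miR-191 (0.63) and bta-miR-1307 (0.61) for bta-miR-100. Without the 2 libraries farthest from the member's median, r fell to 0.20 for bta-miR-31, 0.35 for bta-miR-191, 0.40 for bta-miR-2284t-5p and 0.41 for bta-miR-1307, and was 0.50 to 0.89 for the other 11. These are the highest of 246 values each and were not tested.

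The let-7 partners from the same clusters had low to moderate correlations with the members. Over the 13 libraries r was 0.07 for bta-miR-100 and bta-let-7a-5p, 0.32 for bta-miR-99a-5p and bta-let-7c, 0.27 for bta-miR-125b and bta-let-7c, -0.05 for bta-miR-99b and bta-let-7e, and -0.14 for bta-miR-125a and bta-let-7e. Without the 2 libraries farthest from the member's median, r for these pairs was, in the same order, -0.36, 0.33, -0.46, 0.20 and -0.17. The highest value over all 13 libraries was that of bta-miR-125b and bta-let-7a-5p, 0.47, which was 0.02 without 2 libraries. It placed bta-let-7a-5p at rank 9 of 246 in likeness to bta-miR-125b. For deviations from the group means r was higher in the clusters of MIR100 and MIR99A, 0.68 for bta-miR-125b and 0.43 for bta-miR-100 with bta-let-7a-5p, and 0.40 for both bta-miR-99a-5p and bta-miR-125b with bta-let-7c. It was -0.19 for bta-miR-99b and -0.29 for bta-miR-125a with bta-let-7e. bta-let-7a-5p is also the product of more than 1 gene.

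Against heifers the medians of the members and of let-7 stood on opposite sides of 0, except in ANCs. In cows against heifers 5 of 5 members and 0 of 9 let-7 family miRNAs had a positive log2 fold change, with medians of 0.37 and -0.30 beside -0.03 over all 247 miRNAs. The medians were 0.49 and -0.39 in APCs, 0.29 and -0.54 in TCs at weeks 5 to 6, and 0.36 and -0.24 in TCs at weeks 9 to 10, all against the same heifers. Of the let-7 family 1 miRNA was called, bta-let-7g, downregulated in TCs at weeks 5 to 6 (log2 fold change -1.05, SE 0.29, limma, adjusted p = 0.222). ANCs differed from this pattern in values, with medians of 0.81 for the members and 0.11 for let-7, of which 7 of 9 were positive. Against APCs, ANCs had 8 of 9 let-7 miRNAs at positive values (median 0.72), the highest being bta-let-7e, at 1.23 (SE 0.39, limma, adjusted p = 0.535). Whether the members and let-7 differed in these changes was not tested.

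Within the cluster of MIR99B, MIRLET7E and MIR125A, the ratio of bta-miR-125a to bta-let-7e was 1.13, 1.13 and 1.56 in heifers. It was 2.29 and 1.99 in ANCs, 2.80 and 4.30 in APCs, 2.47, 1.80 and 4.23 in the TCs at weeks 5 to 6, and 0.712, 3.46 and 1.69 at weeks 9 to 10. Heifers were thus below 9 of the 10 cow libraries, the exception being TC replicate 1 at weeks 9 to 10. The ratio of bta-miR-99b to bta-let-7e was 0.197, 0.237 and 0.415 in heifers and 0.203 to 0.829 in cows. That of bta-miR-99a-5p to bta-let-7c was 0.265, 0.300 and 0.533 in heifers and 0.375 to 0.762 in cows. For bta-miR-125b to bta-let-7c the ratio was 0.355 to 0.625 in heifers and 0.61 to 1.26 in cows. For bta-miR-100 to bta-let-7a-5p it was 0.00726 to 0.0158 in heifers and 0.0071 to 0.024 in cows. Each of these overlapped. All ratios to let-7 share the same heifer libraries and were not tested.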

How the data were processed

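EV small RNA was sequenced in 13 pooled libraries. The authors trimmed adaptors with cutadapt 1.11, mapped reads to the bovine genome UMD3.1 with Bowtie2 2.2.2 allowing 1 mismatch, annotated them against miRBase and scaled them by TMM, and they deposited CPM per group or comparison, which are treated as CPM or, where the totals are too large for CPM, as a scaled signal. From the deposited CPM or signal of each library, the value of 1 read was found and 3681 of 3681 values came out whole within 0.1 read. No mature sequences are shown.

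For each comparison, miRNAs listed for both groups were scaled by TMM (edgeR 4.0.16), filtered by filterByExpr (minimum count 10, minimum total 15) and tested with limma 3.58.1 on log2(CPM + 5), with Benjamini-Hochberg adjustment over all miRNAs tested. For cows against heifers and for negative against positive balance, the groups were fitted together and their means averaged with equal weight. The error in these fits came from the spread within groups. Fold changes on this scale understate changes of low miRNAs. Ratios were tested by exact permutation (scipy 1.17.1). Alternatives were DESeq2 1.42.0 and edgeR quasi-likelihood on the recovered reads, other scalings, pseudocounts of 1 and 20, no filter, the day of RNA measurement, a replicate block and leaving out each library. Replicate numbers were taken to pair libraries only in TCs at weeks 5 to 6 against heifers, by the data alone (correlations of deviations 0.188, 0.372 and 0.371). In ANCs against APCs, where they were not taken as pairs, the correlation was 0.255. All 5 members were named. Their fold changes were printed with an error where p was under 0.05 or the log2 change was 0.5 or more in either direction, and the 3 most similar miRNAs were named for each. The scripts were tested on simulated data. The members and lists were chosen with earlier results of these data known.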

Additional observations from a re-analysis of the deposited data

Results flagged for a closer look

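The ratio of bta-miR-125a to bta-miR-125b in TC replicate 3 at weeks 5 to 6, 3.14, stood apart from the other 9 cow libraries, which ranged from 0.738 to 1.98. Its gap to the nearest library was 0.48 of the whole range. This library had the lowest bta-miR-125b level of the study, 2616 CPM, and a bta-miR-125a level of 8227 CPM. In all, 27 groups of values were examined in this way, and chance alone flags about 1 in 20.

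bta-miR-100 was above the heifer mean of 412.9 CPM in all 3 TC libraries at weeks 5 to 6 and below it in both ANC libraries. The direct comparison of ANCs with these TCs gave a log2 fold change of -0.90 (limma, adjusted p = 0.55), which did not pass the threshold. The heifer libraries themselves lay on both sides of their mean, at 253.4, 306.4 and 679.1 CPM.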

How the results depend on the processing

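Of the counts of called members, 161 alternative values kept within 1.5 times and 12 did not. In ANCs against heifers the count of 1 became 0 with DESeq2 size factors (bta-miR-125a log2 fold change 0.95), total reads (0.94), the deposited scaling (0.77), edgeR quasi-likelihood (1.0, adjusted p = 0.177), DESeq2 (0.99, adjusted p = 0.0634) and all 13 libraries in 1 fit (0.94), and 2 with a replicate block, where bta-miR-99b reached 1.18. With 1 library left out it was 0 to 2, and in APCs against heifers 0 to 1. The call was kept with no filter, with both other pseudocounts and with the day as a term. The bta-miR-100 value in APCs against heifers turned to -0.03 with total reads. For the ratio of bta-miR-99a-5p to bta-miR-100, negative against positive cows gave -0.21 with a replicate block and -0.18 to 0.17 with 1 library left out, and cows against heifers gave -0.40 to 0.31. The cows against heifers differences of the other ratios, with 1 library left out, were -0.54 to 0.67 for bta-miR-99b to bta-miR-100, -0.14 to 0.36 for bta-miR-99b to bta-miR-99a-5p and -0.15 to 0.18 for bta-miR-125a to bta-miR-125b. The cause of these changes was not tested. Among the other values 263 were unchanged in direction and call, 13 reversed, 4 gained and 9 lost a call.

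Calls over all miRNAs moved more. In ANCs against heifers they were 40, with 14 higher and 26 lower, against 65 with the block and 4 higher and 41 lower as deposited, and 0 to 54 with 1 library left out. In APCs against heifers they were 29, with 22 higher and 7 lower, against 14 higher and 49 lower with total reads, which moved the median of all miRNAs by -0.54, and 0 with the day as a term. In TCs at weeks 5 to 6 against heifers they were 16, against 36 by DESeq2, 26 with total reads and 0 with the day, and in TCs at weeks 9 to 10 they were 0, against 14 by DESeq2, 7 with the block and 6 with total reads. The block gave 28 calls in ANCs against APCs, where there were none, and with 2 numbers per group it was not taken that they pair the samples. The lone library left in an arm was assumed to vary like the others. The day as a term could not be fitted for ANCs against APCs. With 2 pools in ANCs and APCs and 42 reads of bta-miR-100 in 1 of them, small differences were not detectable.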
